A study of Mus musculus with 229 samples.

Results

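The cells described here are the myeloid cells of a mouse glioblastoma sampled at dpi 25 (the labels do not expand dpi). The members were chosen by measured values of the same library: a cell was taken as a member when it held at least 1 UMI (a tagged and counted transcript) of at least 3 of 8 genes typical of myeloid cells, namely C1qa, C1qb, C1qc, Csf1r, Tyrobp, Fcer1g, Ctss and Aif1. The rule found 359 members among the 4955 cells of the library, or 7.25% (6.54 to 8.003%, exact Clopper-Pearson 95% interval), and left 4596 other cells. The series holds 229 samples, of which 4 are droplet libraries with 15008 cells in all, 3 of them made by Drop-seq.

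The tumour grew in the mouse cerebral cortex region. Its tissue was digested with TrypLE and collagenase, red blood cells were lysed, and the cells were profiled by Drop-seq, which captures single cells with barcoded beads in oil droplets. No sort is given for this library, so immune cells of the tumour could enter it beside tumour cells. The strain, age, number of animals and the lesion that started the tumour are not given in the sources used here. The labels state 6796 cells and the deposited table holds 4955. The other droplet libraries are a second tumour at dpi 35 made with the 10x platform (6054 cells), sorted GFP+ cortex cells of the PDGFRa-GFP strain at postnatal days 1 to 3 (3184 cells), and sorted GFP+ cortex cells of the hGFAP-GFP strain at postnatal days 5 to 6 (815 cells). With 1 library per group there are no replicates, so no p-value is given anywhere, and all intervals are 95% intervals that cover counting error only.

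Brain tumours hold myeloid cells of several origins. Microglia are the resident macrophages of brain tissue, and in the resting state they carry the purine receptor P2ry12, the membrane protein Tmem119 and the fractalkine receptor Cx3cr1. Other macrophages live at the borders of the brain, and monocytes enter from blood and become macrophages in the tumour. Macrophages in tumours often make arginase, encoded by Arg1, which splits arginine and so takes it away from T cells. Macrophages that take up myelin and dead cells often carry the lipid-handling genes Spp1, Apoe, Gpnmb and Trem2.

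Promoters of the rule genes are shown because these genes chose the members, 326 of which held at least 6 of the 8, and because macrophage genes of this kind are known targets of the ETS factor encoded by Spi1. The 250 bases before the start of each gene were read from RefSeq on build GRCm38.p6, and 5 of the 8 rule genes had an entry. The word GAGGAA, the core of the site that this factor binds, was searched on both strands (as TTCCTC on the other) and is printed in capitals. It was chosen after the promoters had been looked at.
Ctss, chr3:95526536-95526785, plus strand: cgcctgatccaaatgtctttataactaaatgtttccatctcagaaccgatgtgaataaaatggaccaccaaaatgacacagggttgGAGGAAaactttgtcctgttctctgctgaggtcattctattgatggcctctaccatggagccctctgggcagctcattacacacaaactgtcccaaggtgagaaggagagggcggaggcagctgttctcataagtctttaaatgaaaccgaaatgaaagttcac
C1qb, chr4:136886201-136886450, minus strand: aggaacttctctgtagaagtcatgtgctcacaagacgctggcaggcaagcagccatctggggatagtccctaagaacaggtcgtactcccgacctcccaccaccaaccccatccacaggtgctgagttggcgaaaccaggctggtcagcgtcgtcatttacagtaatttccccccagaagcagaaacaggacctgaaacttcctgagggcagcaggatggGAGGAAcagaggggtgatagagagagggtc
C1qc, chr4:136892915-136893164, minus strand: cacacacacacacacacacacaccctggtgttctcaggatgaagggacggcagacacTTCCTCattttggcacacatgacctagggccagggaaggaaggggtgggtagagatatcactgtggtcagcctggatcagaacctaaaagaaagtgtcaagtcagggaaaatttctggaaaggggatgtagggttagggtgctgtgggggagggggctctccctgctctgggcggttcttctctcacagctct
The word was present in 4 of the 5 rule gene promoters (80%), in Aif1 besides those shown, and in 7639 of 32851 promoters of the whole table (23.3%). The longer word GAGGAAGT (ACTTCCTC on the other strand), which overlaps the shorter one, was present in C1qc alone of the 5 (20%) and in 802 of the 32851 (2.44%). A match is a run of letters and not a measured binding site. Spi1 itself had 163 CPM (a gene's UMIs per 1000000 UMIs of a set of cells) in members, against 0.376 CPM in other cells.

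The rule genes gave a clear break in the library, which is a description and no finding since they chose the members. None of the 8 genes was detected in 4037 cells, 1 in 517 cells and 2 in 42 cells. Above the threshold there were 16 cells with 3 genes, 8 with 4, 9 with 5, 43 with 6, 128 with 7 and 155 with all 8. So 326 members held 6 or more and 33 held 3 to 5. C1qa, C1qb and C1qc, the chains of the complement starter C1q, had 2756, 3394 and 3884 CPM in members, against 7.14, 10.7 and 9.49 CPM in other cells. Ctss, a lysosomal protease, had 5119 CPM in members and 13.5 CPM in other cells, and was detected in 99.4% of members. Csf1r, the receptor of the survival factor Csf1, was detected in 66.02% of members and in 0.522% of other cells. Tyrobp and Fcer1g, signalling adaptors of myeloid receptors, had 2298 and 2831 CPM in members, against 5.26 and 7.33 CPM in other cells. Aif1, which codes for the microglial marker Iba1, had 588 CPM in members and 2.16 CPM in other cells.

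Genes outside the rule changed over the same steps. Lyz2, the lysozyme of macrophages, was detected in 37.5% of the 16 cells with 3 rule genes and in 14.3% of the 42 cells with 2. Olig1, a factor of oligodendrocyte precursor cells (OPCs) that the tumour cells also carry, was detected in 68.8% of the cells with 3 rule genes and in 88.1% of those with 2. In cells with all 8 rule genes Lyz2 was detected in 91.0% and Olig1 in 13.5%. The members just inside the threshold thus carried tumour transcripts more often than those with all 8, and the 8 rule genes made up 0.271% of their UMIs, against 2.54% in cells with all 8 and 0.0845% in cells with 2.

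**Figure D1:**
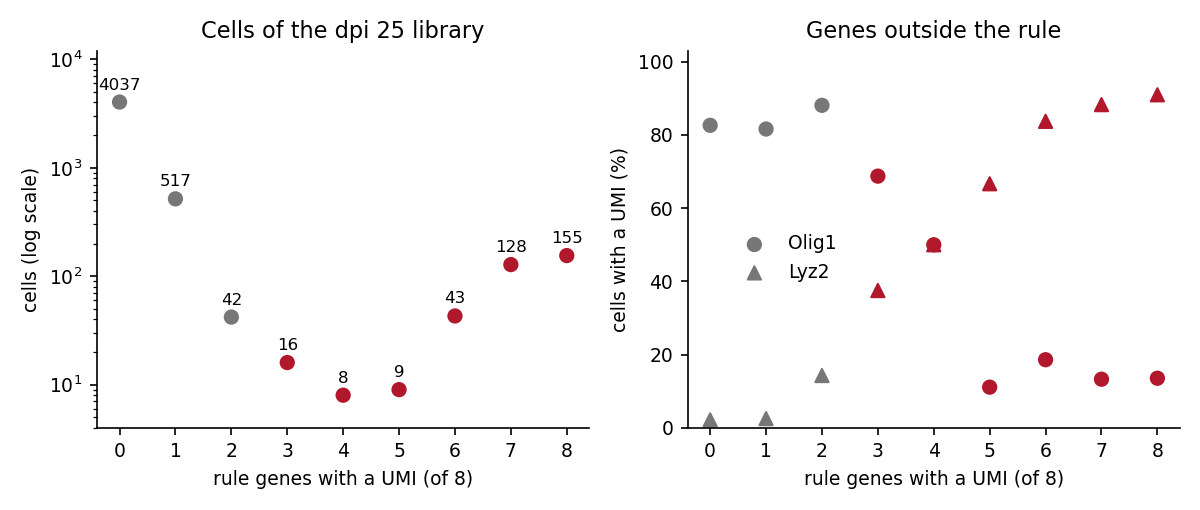
Left, number of cells of the dpi 25 library (log axis) by the number of rule genes with a UMI. Right, percentage of those cells with a UMI of Olig1 (circles) or Lyz2 (triangles). Red marks members and grey marks other cells. Few cells held 3 to 5 rule genes, and Lyz2 was detected in 2.18% of cells with none of the rule genes and in 91.0% of cells with all 8.

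Members and other cells were of similar depth. Members had 1219 to 7681 UMIs with a median of 2181, and other cells had 1046 to 7548 with a median of 2055. With every cell thinned to 1000 UMIs, a median of 628 genes was detected in members and 730 in other cells. Mitochondrial transcripts made up 6.69% of UMIs in members and 6.25% in other cells. No cell barcode was shared with either cortex library, and 29 pairs of dpi 25 barcodes were 1 base apart, none of them with both cells members and 7 with 1 member. The same rule found 6 of 3184 cells (0.188%) in the sorted PDGFRa-GFP cortex. It found 0 of 815 in the sorted hGFAP-GFP cortex, which allows a share of up to 0.368% by the limit of 3 counts, or 0.452% by the exact 95% interval.

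Doublets were not removed, and part of the members carried transcripts of tumour cells. In all, 46 members held UMIs of 2 or more of the 6 tumour genes Pdgfra, Olig1, Olig2, Cspg4, Sox10 and Cdkn2a, and their median depth was 2851 UMIs, against 2130 in the 313 members with at most 1. The 12 genes of the tumour and OPC list summed to 522 CPM in members and 3181 CPM in other cells, and 48.2% of members had a UMI of at least 1 of them, against 97.8% of other cells. In the 313 members that list was at 227 CPM. The 6 genes that set these members apart are all on the list, so a lower value was built into the choice.

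Relative to all other cells, the members were marked by secreted and lysosomal proteins, lipid carriers and innate immune receptors. Among 12921 genes with at least 20 summed UMIs, 1744 were at least 2-fold higher in members (13.5%) and 3870 at least 2-fold lower (30%). Genes under that minimum are called not measured and are not counted, and a gene can reach it through 1 of the sets alone. The median log2 ratio of all genes was −0.46. With ratios centred on that median, 2494 genes were higher and 2384 lower. Single genes below are given as CPM ratios without centring. The 12 highest ratios among genes whose higher set reached 50 UMIs and 50 CPM (the naming rule), from 10.46 for Ccr1 to 9.12 for Cd180 on the log2 scale, were those of Ccr1, Cst7, Cd86, Ptgs1, C3ar1, Ccl4, Arl11, Bcl2a1b, Ccl3, Apoc4, Cd48 and Cd180. Among them are chemokines, a chemokine receptor and leukocyte surface proteins, and each rested on 6 or fewer UMIs in other cells.

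The most abundant transcript of the members outside the mitochondrial ones was Spp1, which codes for the secreted protein osteopontin. On the deposited scale of 10000 per cell its lowest, median and highest values in members were 0, 96.8 and 1597, so it varied widely from cell to cell. It summed to 29558 CPM in members and 74.6 CPM in other cells, a log2 ratio of 8.63 (8.53 to 8.73). Apoe, a lipid carrier, was more even, with a lowest value of 0, a median of 234 and a highest of 956 per 10000. It had 25784 CPM in members and 182 CPM in other cells. Fth1, the heavy chain of the iron store ferritin, had 17797 CPM in members and 1739 CPM in other cells. Among lysosomal proteases the most abundant were Ctsd with 10322 CPM in members against 95.2 CPM in other cells, and Ctsl with 6859 CPM in members against 365 CPM in other cells. The granule proteoglycan gene Srgn had 4058 CPM in members and 17.8 CPM in other cells, and Lyz2 had 4002 CPM in members and 10.2 CPM in other cells.

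Genes of resting microglia were high in the members. All 13 measured genes of the 14 on the homeostatic microglia list were at least 2-fold higher in members, with a median log2 ratio of 7.38. Cx3cr1 had 594 CPM in members and 3.57 CPM in other cells, and was detected in 64.1% of members. P2ry12 was detected in 32.6% of members and in 0.500% of other cells. Tmem119 was detected in 18.4% of members and in 0.522% of other cells. Sall1, a transcription factor of microglia, had the smallest ratio of the list, with 38.6 CPM in members and 13.5 CPM in other cells, and was detected in 8.08% of members.

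Genes used to mark macrophages of other origins were high as well. All 8 measured genes of the 10 on the border macrophage list were higher, with a median log2 ratio of 7.86. Among them, F13a1, a clotting factor chain, had 472 CPM in members and 1.41 CPM in other cells. Pf4, a platelet-type chemokine, had 297 CPM in members and 0.752 CPM in other cells, but 60 of its 269 UMIs in members lay in 1 cell. Of 12 measured genes of the monocyte-derived list, 9 were higher and Vcan, which the tumour cells carry, was lower, with a median of 5.39. Fn1, coding for fibronectin, had 1464 CPM in members and 75.3 CPM in other cells. The monocyte receptor Ccr2 had 14 UMIs in 9 members and none in other cells, and the monocyte surface gene Ly6c2 had 3 UMIs in members.

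Receptors for antibodies and microbial products were higher throughout their lists. All 10 genes of the Fc receptor list were higher (median log2 ratio 7.48), as were all 15 measured genes of the 16 on the Toll-like receptor and adaptor list (median 6.92). Fcgr3, an activating Fc receptor, had 514 CPM in members and 1.79 CPM in other cells. Tlr2, Tlr7 and Tlr13, sensors of bacterial or viral products, had 59.6, 96.0 and 76.1 CPM in members, against 0.282, 0.470 and 0.282 CPM in other cells. Of 8 measured complement genes, 7 were higher, and the endothelial gene Cd93 was lower. C3ar1, the receptor of the complement fragment C3a, had 332 UMIs in members and 5 in other cells, a log2 ratio of 9.61 (8.37 to 11.24).

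Chemokines divided by gene. Of 15 measured ligands, 11 were higher and Cx3cl1, the ligand of Cx3cr1, was lower with 2.21 CPM in members and 18.6 CPM in other cells. Ccl12, a ligand of Ccr2, was the most abundant, with 1204 CPM in members and 7.14 CPM in other cells. Ccl3 and Ccl4, chemokines that attract leukocytes, had 306 and 323 CPM in members, against 0.470 CPM each in other cells. All 6 measured chemokine receptors were higher. Ccr1 had the largest ratio of all genes named by the rule, with a log2 ratio of 10.46 (7.95 to 15.77). It had 120 UMIs in members and 1 in other cells. With cells thinned to 1000 UMIs, Ccr1 was detected in 11.7% of members and 0% of other cells. Its log2 ratio of 7.65 in that setting is a lower bound, set by the floor used where a set had 0 UMIs. Of 16 measured cytokine and growth factor genes, 9 were higher, among them Il1a, Tnf and Osm, and 3 were lower. Some inflammatory cytokines rested on few UMIs. Il1b had 7 UMIs in members, Tnf had 18 and Osm had 19. The growth factor Igf1 had 323 UMIs, or 356 CPM in members against 1.60 CPM in other cells.

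Antigen presentation differed between its classes. All 10 MHC class I pathway genes were higher in members, with a median log2 ratio of 3.29. B2m, the light chain of class I, had 5964 CPM in members and 441 CPM in other cells. Class II genes stayed low. Only 3 of the 10 were measured, and all 3 (H2-Ab1, H2-DMa and H2-DMb1) were higher. Cd74, the invariant chain that guides class II molecules, had 6 UMIs in 6 of the 359 members, H2-Aa had 3 and H2-Eb1 had 0. H2-Ab1 had 72 UMIs in 50 members, or 79.4 CPM in members against 21.3 CPM in other cells.

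Lipid, lysosome and iron genes were high together. Of 18 measured genes of the lipid handling and phagocytosis list, 16 were higher (median log2 ratio 4.60), Fabp5 and Cd9 staying within 2-fold. Trem2, a lipid-sensing receptor that signals through Tyrobp, had 685 CPM in members and 2.35 CPM in other cells. Gpnmb, a lysosomal glycoprotein, had 553 CPM in members and 9.40 CPM in other cells. Of 18 cathepsin and protease genes, 16 were higher, and Mmp14 and the protease inhibitor Timp1 were lower. Of 10 iron and haem genes, 9 were higher, such as the haem-splitting Hmox1 with 510 CPM in members and 15.5 CPM in other cells. Tfrc, which takes up iron bound to transferrin, was lower, with 23.2 CPM in members and 100 CPM in other cells.

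Arg1 had the largest log2 ratio of the measured arginine and polyamine genes (8.73), and the others went both ways. Arg1 had 3476 UMIs in members, or 3834 CPM against 9.02 CPM in other cells, and was detected in 54.04% of members and 1.74% of other cells. Of the 10 measured arginine and polyamine genes, Arg1, Nos2 and Sat1 were higher. Nos2, the nitric oxide synthase that uses the same substrate, rested on 6 UMIs in members. The arginine transporter Slc7a1 and the polyamine enzymes Odc1, Srm and Sms were lower, with 11.0, 11.0, 50.7 and 34.2 CPM in members, against 40.3, 58.6, 130 and 96.2 CPM in other cells. The list's median log2 ratio was −0.41, close to the −0.46 of all genes. Of 7 measured genes of the alternative activation list, which holds Arg1, 6 were higher, among them the scavenger receptor Msr1 with 719 CPM in members and 1.69 CPM in other cells.

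Transcription factors of the myeloid lineage were higher in 21 of 23 measured genes, with a median log2 ratio of 2.92. Ikzf1 had 48 UMIs in members and 0 in other cells, which makes it at least 188-fold higher against a floor of 3 UMIs over the other cells. Maf, a factor of macrophage differentiation, had 354 CPM in members and 3.20 CPM in other cells. Stat3 did not differ by 2-fold, with 94.8 CPM in members and 109 CPM in other cells. The interferon list was mixed, with 9 of 17 genes higher (13 with centred ratios) and Ifit2 lower. Hypoxia and glycolysis genes were mostly within 2-fold, with 3 of 20 (Ero1l, Ndrg1 and Hk2) higher, or 7 with centred ratios.

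**Figure D2:**
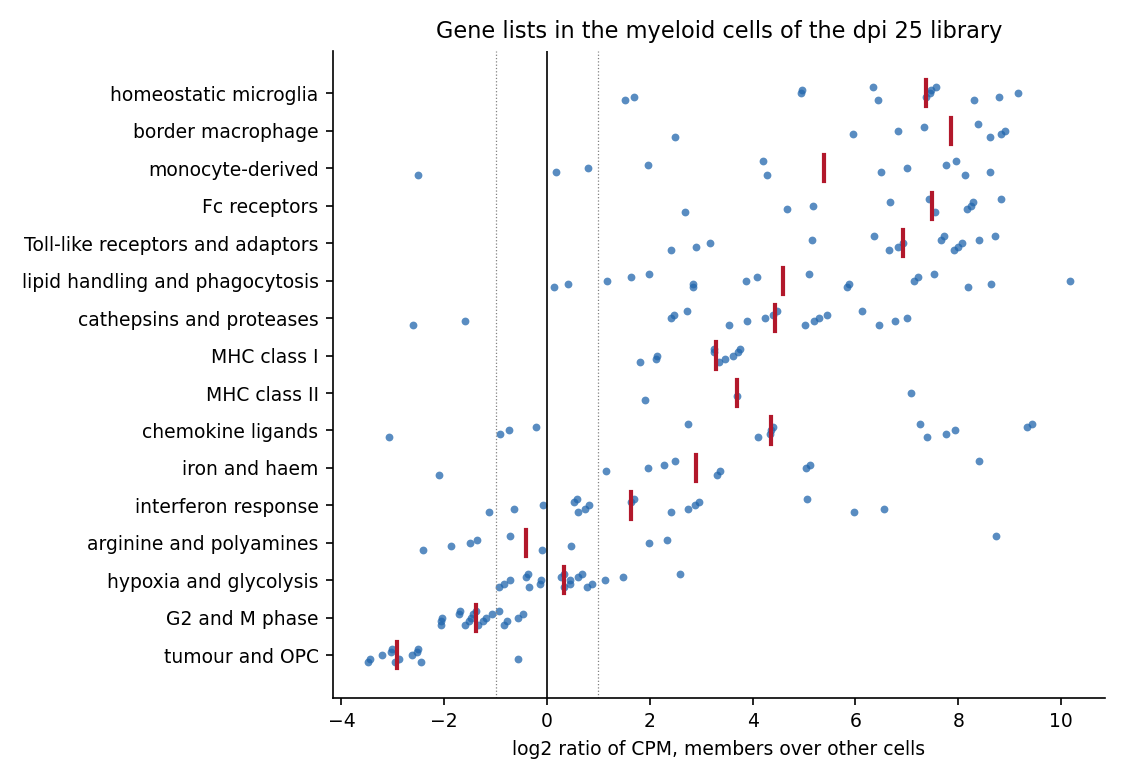
Log2 ratio of CPM, members over other cells, for the measured genes of 16 lists (1 point per gene). Red bars are list medians, dotted lines mark 2-fold, and rule genes are left out. Receptor, macrophage and lipid lists lie to the right, and the G2 and M phase list (median −1.38) and the tumour and OPC list (median −2.92) lie to the left.

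Genes low in members were those of tumour and neural cells. The 12 lowest ratios by the naming rule lay between −6.27 for Phyhipl and −4.18 for Mfap2 on the log2 scale. Phyhipl had 1 UMI in members and 905 in other cells. With cells thinned to 1000 UMIs it had 0 UMIs in members, and its log2 ratio of −3.34 is an upper bound set by a floor of 3 UMIs. The lipid carrier Apod had 7 UMIs in members and 4214 in other cells. It was detected in 1.95% of members and only 4.37% of other cells, and 548 of the 4214 UMIs lay in 1 cell. Of 12 tumour and OPC genes, 11 were lower, with Olig1 at 135 CPM in members and 1109 CPM in other cells, and Cspg4 within 2-fold. Markers of further cell types were lower or scarce. The oligodendrocyte list summed to 254 CPM in members and 1763 CPM in other cells, with Mog and Opalin at 0 in members. The astrocyte list was at 140 CPM in members and 416 CPM in other cells, and the neuron list at 24.3 CPM in members and 78.9 CPM in other cells. The endothelial list was at 40.8 CPM in members and 182 CPM in other cells, with Cldn5 and Slco1a4 at 0 in members. It was detected in similar shares of cells, 6.13% of members and 6.16% of other cells. The mural list was at 142 CPM in members and 300 CPM in other cells, with Rgs5, Kcnj8, Vtn, Des and Col1a1 at 0 in members. The haemoglobin list was at 107 CPM in members and 331 CPM in other cells, but was detected in 15.3% of members and 13.1% of other cells. The oligodendrocyte, astrocyte, neuron and mural lists were detected in a smaller share of members than of other cells.

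Other white blood cells left few transcripts. The lymphoid list of 18 genes had 13 UMIs in all members, with Cd4, Gzma, Ms4a4b, Cd79a and Ms4a1 at 0. In the neutrophil list S100a8 had 100 UMIs in 53 members, yet S100a9, its partner in neutrophils, had 0, as had Mmp9, Retnlg and Ngp. The dendritic cell list was at 57.4 CPM in members and 158 CPM in other cells, with Zbtb46, Xcr1 and Clec9a at 0 in members. Its 2 measured genes went opposite ways, Batf3 higher in members (log2 ratio 2.02) and Fscn1 lower (−1.93), so the sum does not speak for the list. Cd209a and Ccr7 were absent from the data of this library.

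Most G2 and M phase genes were detected in members but lower than in the other cells, 82.6% of which carried Olig1. Of 19 G2 and M phase genes, 14 were at least 2-fold lower, and 8 with centred ratios. Of 17 S phase genes, 8 were lower, and 3 with centred ratios. Among all genes 30% were lower, and 18.5% with centred ratios, so the S phase count with centred ratios was near that of all genes. With every cell thinned to 1000 UMIs, 101 of 359 members (28.1%, 23.5 to 33.1%) and 56.3% of other cells held at least 3 G2 and M phase genes. Before thinning the shares were 38.997% of members and 68.5% of other cells. Among the 313 members with at most 1 tumour gene the thinned share was 25.2%, and among the 46 with 2 or more it was 47.8%. Mki67, a gene of dividing cells, was within 2-fold, with 346 CPM in members and 477 CPM in other cells.

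Arg1 was uneven among the members. It was detected in 194 members and not in 165, with up to 128 UMIs in 1 cell. The 36 members with most Arg1 held 54.7% of its UMIs, the 90 with most held 84.0%, and 180 members held 99.6%. On the deposited scale of 10000 per cell its lowest, median and highest values were 0, 7.40 and 372. Members with Arg1 were deeper, with a median of 2377.5 UMIs against 2063 in members without it. Thinning to 1000 UMIs left Arg1 detected in 50.97% of members and in 0.957% of other cells.

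Srgn, Adam8, Cfp and Mmp12 were among the genes at higher levels in members with Arg1 than in members without it. Among 5677 genes tested, 254 were at least 2-fold higher (4.47%) and 440 at least 2-fold lower (7.75%), with a median log2 ratio of −0.14. With ratios centred on that median, 348 were higher and 330 lower. Srgn had 6483 CPM in members with Arg1 and 760 CPM in members without it, a log2 ratio of 3.09 (2.92 to 3.27), and was detected in 94.8% of members with Arg1 and 60% of members without it. Adam8, a cell surface protease, had 251 CPM in members with Arg1 and 31.2 CPM in members without it. Cfp, which codes for the complement activator properdin, had 140 CPM in members with Arg1 and 13.01 CPM in members without it, a log2 ratio of 3.42 (2.14 to 5.09). The 12 highest ratios lay between 5.44 for Mmp12 and 2.25 for Sdc4 on the log2 scale. Egln3, an oxygen-sensing hydroxylase, and the crosslinking enzyme Tgm2 had log2 ratios of 2.70 and 2.32. Mmp12, a macrophage elastase, had 59 UMIs in members with Arg1 and 1 in members without it, but 46 of them lay in 1 cell.

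Spp1 had 42394 CPM in members with Arg1 and 12104 CPM in members without it (log2 ratio 1.81, 1.76 to 1.85). Of the 18 lipid handling genes, Spp1, Lgals3, Gpnmb, Plin2 and Cd36 were higher, and the lipase Lpl was lower. Lgals3, a sugar-binding protein of activated macrophages, had 1721 CPM in members with Arg1 and 393 CPM in members without it. Trem2 did not follow, with 710 CPM in members with Arg1 and 651 CPM in members without it, and neither did Apoe, with 28119 CPM in members with Arg1 and 22608 CPM in members without it. The list's median log2 ratio was 0.46.

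Border macrophage genes were higher in 6 of 7 measured genes (Mrc1, Pf4, F13a1, Ms4a7, Folr2 and Stab1; median log2 ratio 1.78). F13a1 had 706 CPM in members with Arg1 and 154 CPM in members without it. Pf4 had 492 CPM in members with Arg1 and 31.2 CPM in members without it, and was detected in 30.9% of members with Arg1 and 6.06% of members without it. All 4 measured alternative activation genes (Mrc1, Chi3l3, Il4ra and Msr1) were higher, although 35.3% of the Chi3l3 UMIs lay in 1 cell. Of 10 monocyte-derived genes, Fn1, Hp, Emilin2, Tgfbi and Ccl9 were higher and Vcan was lower. Without the 46 members that carried 2 or more tumour genes, the border count was 4 and the monocyte-derived count 3. The neutrophil list, of which S100a8 alone was measured and S100a9 was at 0, stood at 147 CPM in members with Arg1 and 78.1 CPM in members without it, and its part in these counts was not tested.

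Some chemokine and microbial-sensing genes were higher with Arg1 as well. Of 10 measured ligands, Ccl6, Ccl7, Ccl9 and Cxcl2 were higher, and of 5 receptors, Ccr1 and Ccrl2. Ccl6 had 657 CPM in members with Arg1 and 190 CPM in members without it. Tlr4, its co-receptor Cd14 and the C-type lectins Clec4n, Clec4d and Clec4e were higher among 13 pattern receptor genes, with Clec4e at 35 UMIs in members with Arg1 and 1 in members without it. Without the 46 members that carried 2 or more tumour genes this last count was 3, and with cells thinned to 1000 UMIs it was 1. Thinning also left fewer genes that could be counted, 2881 against 5677 over all genes. Ccl3 and Ccl4 were within 2-fold, with 270 and 343 CPM in members with Arg1, against 354 and 297 CPM in members without it. None of the 10 MHC class I genes was past 2-fold. Of 20 hypoxia and glycolysis genes, Bnip3, Ndrg1 and Adm were higher with Arg1 (6 genes without those 46 members).

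Of 13 resting microglia genes, 4 were lower with Arg1 and none was higher (7 lower without the 46 members with tumour genes), with a list median of −0.90. Siglech, a sialic acid receptor, had 51.7 CPM in members with Arg1 and 167 CPM in members without it (log2 ratio −1.69, −2.39 to −1.02). Tmem119 had 70.8 CPM in members with Arg1 and 148 CPM in members without it, and Sall1 and Slc2a5 had log2 ratios of −1.97 and −1.69. Cx3cr1 and P2ry12 were within 2-fold, with 469 and 142 CPM in members with Arg1, against 765 and 268 CPM in members without it.

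Transcripts of tumour and other cells moved with the split, and their part in its counts was not tested. The tumour and OPC list was at 335 CPM in members with Arg1 and 776 CPM in members without it, with 6 of its 7 measured genes lower. The oligodendrocyte list was at 180 CPM in members with Arg1 and 354 CPM in members without it, with 3 of 5 measured genes lower. The haemoglobin list was at 51.7 CPM in members with Arg1 and 182 CPM in members without it, with both measured genes lower. Mitochondrial transcripts made up 6.003% of UMIs in members with Arg1 and 7.61% in members without it. Without the 46 members with 2 or more tumour genes, the count of lower genes was 227, and 1 gene of the tumour and OPC list was lower. The genes that chose those 46 members are on that list, so the choice itself bore on its count. In that setting Bex2 had a log2 ratio of −0.41, Gria2 of −1.52 and Igfbp3 of −1.89, against −2.33, −2.40 and −3.10 with all members. Of 19 G2 and M phase genes, Aurka, Ube2c and Plk1 were lower in members with Arg1, and none without those 46 members. The thinned share of cells with at least 3 such genes was 23.2% of members with Arg1 and 33.9% of members without it, with intervals of 17.5 to 29.8% with Arg1 and 26.8 to 41.7% without it that overlap.

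Several levels followed the amount of Arg1. The 165 members with no Arg1 UMI, the 45 with 1 to 4, the 91 with 5 to 19 and the 58 with 20 or more had median depths of 2063, 1881, 2080 and 3194.5 UMIs, so the last set was deeper. Spp1 was at 12104, 25001, 36917 and 57984 CPM from the lowest to the highest set. The border macrophage list was at 619, 1299, 2090 and 2554 CPM over the same sets, and Lgals3 at 393, 837, 1219 and 2770 CPM. Both rose at each step. The hypoxia and glycolysis list was at 3974, 4407, 5171 and 8402 CPM, with its largest step between the last 2 sets. The homeostatic microglia list went the other way, at 8409, 6881, 6752 and 5190 CPM, and the tumour and OPC list was at 776, 577, 330 and 211 CPM. Trem2 was nearly level at 651, 683, 710 and 725 CPM, and the monocyte-derived list levelled off at 4669, 6794, 9065 and 8782 CPM.

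**Figure D3:**
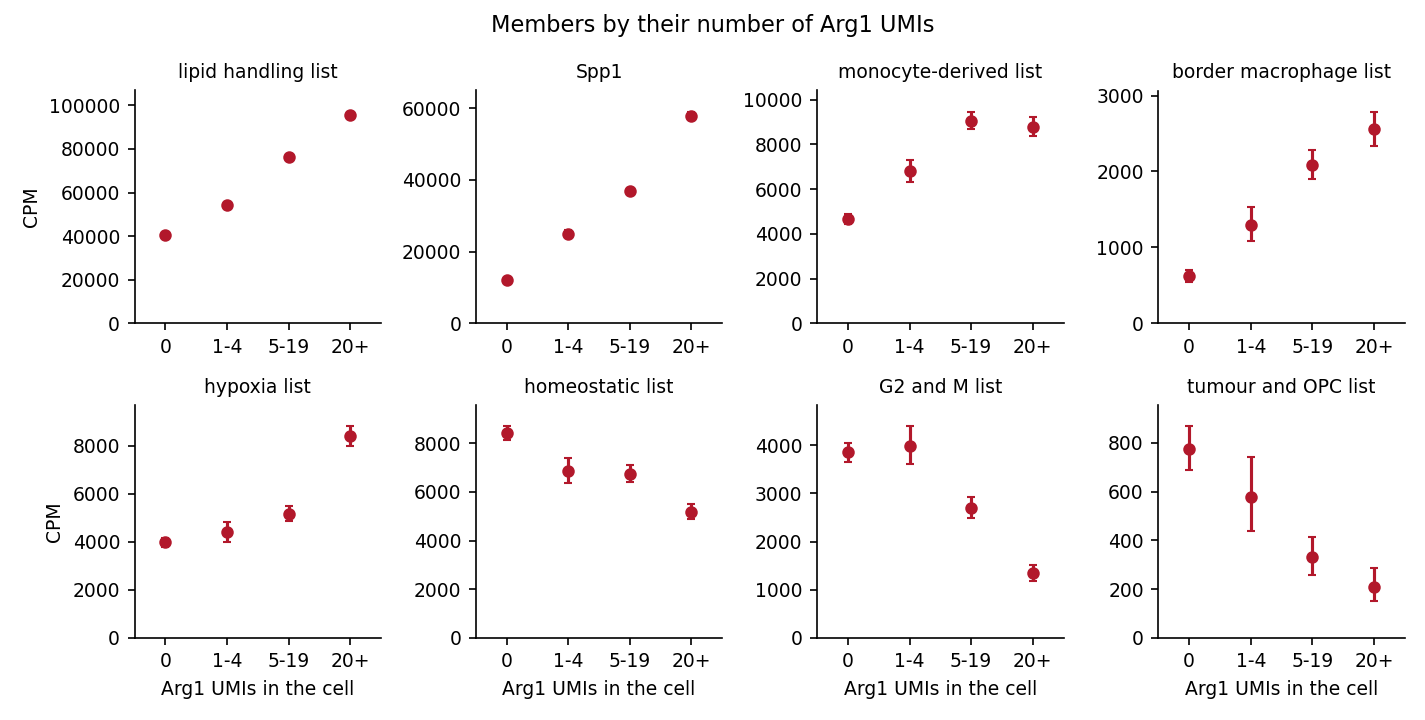
CPM of lists and of Spp1 in members with 0, 1 to 4, 5 to 19 and 20 or more Arg1 UMIs (165, 45, 91 and 58 cells), with exact Poisson 95% intervals. Spp1 ran up to 57984 CPM with the most Arg1, and the homeostatic microglia list down to 5190 CPM.

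P2ry12 marked fewer members than Arg1. It was detected in 117 members and not in 242, with a median depth of 2117 UMIs in members with it and 2188 in members without it, and its 177 UMIs gave at most 39.7 per 10000 in 1 cell. Among 5677 genes, 155 were at least 2-fold higher (2.73%) and 264 at least 2-fold lower (4.65%), with a median log2 ratio of 0.00. With cells thinned to 1000 UMIs, 99 of 2881 genes were higher (3.44%) and 297 lower (10.3%). Further genes of resting microglia stood higher, 4 of 12 measured past 2-fold (2 among members with at least 6 rule genes) with a list median of 0.92. Olfml3, a secreted matrix protein of microglia, had 292 CPM in members with P2ry12 and 141 CPM in members without it (log2 ratio 1.04, 0.60 to 1.49). Tmem119 had 161 CPM in members with P2ry12 and 75.6 CPM in members without it, and P2ry13 and Slc2a5 had log2 ratios of 1.32 and 1.79. Cx3cr1 had a log2 ratio of 0.75, and Selplg, the ligand of P-selectin, was just under 2-fold at a fold of 1.997. Of the 12 highest ratios by the naming rule, Olfml3 alone passed 2-fold, and the others reached down to 0.76 on the log2 scale.

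Genes lower in members with P2ry12 included lipid and hypoxia genes. Gpnmb had 174 CPM in members with P2ry12 and 738 CPM in members without it (log2 ratio −2.08, −2.53 to −1.67, and −3.29 with cells thinned to 1000 UMIs). Fabp5, a fatty acid carrier, had 225 CPM in members with P2ry12 and 646 CPM in members without it. The lipid list had Gpnmb, Fabp5 and Cd36 lower among 18. Of 20 hypoxia and glycolysis genes, Vegfa, Ndrg1, Adm and Ankrd37 were lower, with Ndrg1 at 4 UMIs in members with P2ry12 and 80 in members without it. Among members with at least 6 rule genes 1 of the 20 was lower. With cells thinned to 1000 UMIs Ndrg1 had 0 UMIs in members with P2ry12. Its log2 ratio of −0.71 in that setting is an upper bound set by the floor of 3 UMIs over the set, and does not show whether it stayed past 2-fold. Hilpda, a lipid droplet protein that low oxygen induces, had a log2 ratio of −1.64, and the metallothionein Mt2 of −1.75. Of the 8 complement genes C4b, Cfp and Cd93 were lower (1 gene with cells thinned, where fewer genes reached the minimum). Mmp12 had 0 UMIs in members with P2ry12 and 60 in members without it, at least 9.81-fold lower against a floor of 3 UMIs over the set, with 46 of the 60 in 1 cell. The tumour and OPC list was at 560 CPM in members with P2ry12 and 503 CPM in members without it, and none of the 19 G2 and M phase genes passed 2-fold.

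Arg1 and P2ry12 were not exclusive. Both were detected in 56 members (15.6%), Arg1 alone in 138 (38.4%), P2ry12 alone in 61 (16.99%) and neither in 104 (28.97%). Arg1 was detected in 47.9% of members with P2ry12 (38.5 to 57.3%) and in 57.02% of members without it (50.5 to 63.3%), and the intervals overlap. After thinning to 1000 UMIs the shares were 38.2% of members with P2ry12 (26.7 to 50.8%) and 53.95% of members without it (48.04 to 59.8%). The thinned sets hold fewer cells with P2ry12, since it was then detected in 18.9% of members.

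The 4 sets differed most at their extremes. Spp1 was at 39392 CPM in members with both genes, 43701 CPM with Arg1 only, 6465 CPM with P2ry12 only and 15335 CPM with neither. Cells with both were thus near the Arg1 only cells in Spp1. Gpnmb instead was at 303, 945, 28.6 and 430 CPM in the same order, and Fabp5 at 246, 728, 200 and 524 CPM, so that members with both were below members with neither. Ndrg1 was at 25.3 CPM with both, 168 CPM with Arg1 only and 77.8 CPM with neither, and had 0 UMIs with P2ry12 only. Cx3cr1 was at 682, 376, 972 and 647 CPM and Siglech at 69.4, 43.95, 221 and 135 CPM, both highest with P2ry12 only. Cst3, a secreted inhibitor of cathepsins, was at 7474, 6090, 13688 and 7901 CPM. The tumour and OPC list was at 379, 316, 764 and 782 CPM, higher in both sets without Arg1.

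**Figure D4:**
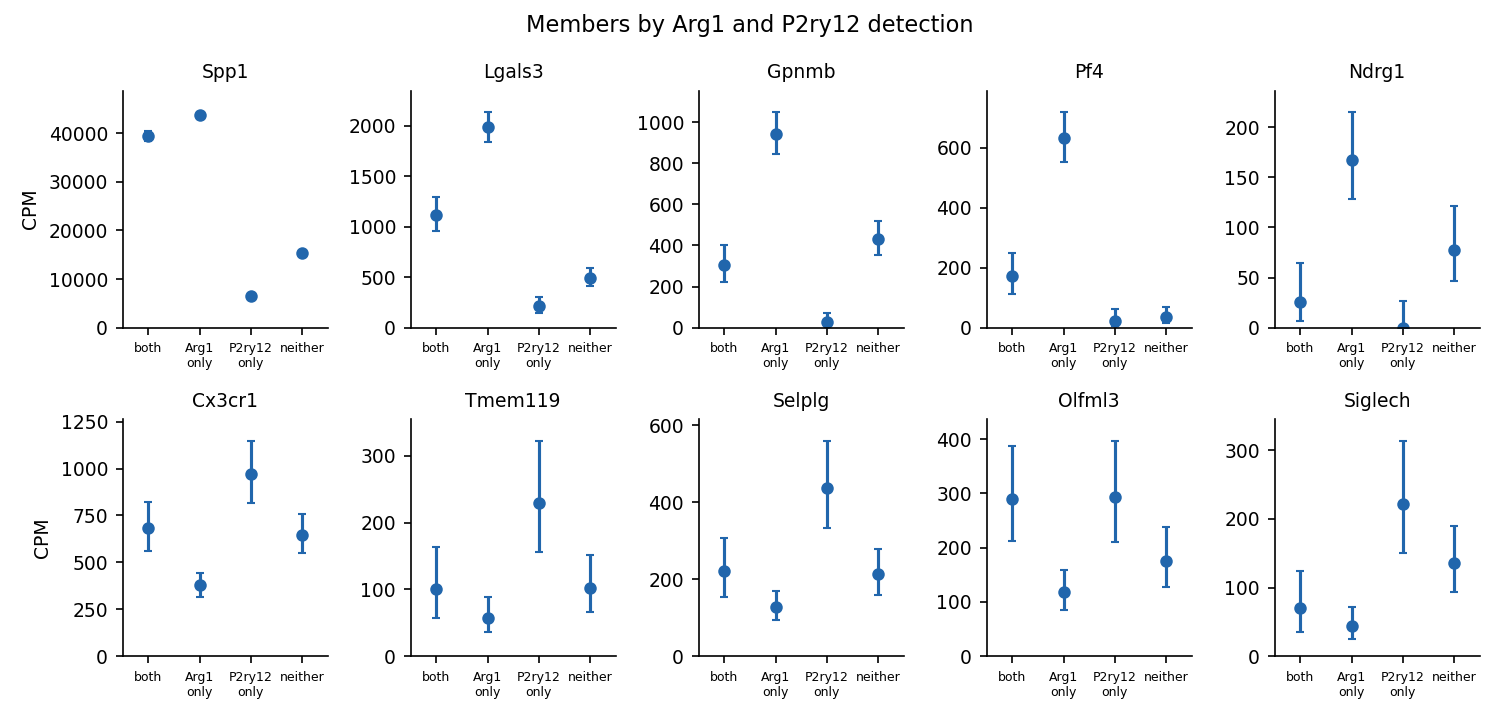
CPM of 10 genes in members with both Arg1 and P2ry12 (56 cells), Arg1 only (138), P2ry12 only (61) and neither (104), with exact Poisson 95% intervals. Spp1 is high in both sets with Arg1, Gpnmb is highest with Arg1 only (945 CPM), and Cx3cr1 is highest with P2ry12 only (972 CPM).

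Values of the dpi 35 tumour are given beside those of these cells with no test and no direction. The time, the platform and the animal or animals sampled all differ and cannot be told apart. In the dpi 35 tumour the rule of 3 genes was met by 4893 of 6054 cells (80.8%). Apoe was detected in 95.7% of the 1161 dpi 35 cells with 0 to 2 rule genes, and whether free RNA gave these UMIs was not tested. The 2641 dpi 35 cells with all 8 rule genes were used, a set chosen after seeing the data, with a median of 7751 UMIs. Arg1 had 3834 CPM in dpi 25 members and 25.9 CPM in those dpi 35 cells, and was detected in 54.04% of dpi 25 members and 4.32% of the dpi 35 cells. Spp1 had 29558 CPM in dpi 25 members and 5161 CPM in the dpi 35 cells, and Srgn had 4058 CPM in dpi 25 members and 339 CPM in the dpi 35 cells. F13a1 had 472 CPM in dpi 25 members and 12.6 CPM in the dpi 35 cells.

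Among genes of resting microglia, P2ry12 had 195 CPM in dpi 25 members and 431 CPM in the dpi 35 cells, and Tmem119 had 104 CPM in dpi 25 members and 416 CPM in the dpi 35 cells. Cd74 had 6.62 CPM in dpi 25 members and 224 CPM in the dpi 35 cells, with 14.2 CPM in the dpi 35 cells that held 0 to 2 rule genes. H2-Ab1 had 79.4 CPM in dpi 25 members and 85.2 CPM in the dpi 35 cells. The rule also differed between these sets, and the 155 dpi 25 members with all 8 rule genes had 3235 CPM of Arg1, 30277 CPM of Spp1, 3562 CPM of Srgn and 389 CPM of F13a1. They had 246 CPM of P2ry12, 133 CPM of Tmem119, 7.11 CPM of Cd74 and 59.3 CPM of H2-Ab1.

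**Figure D5:**
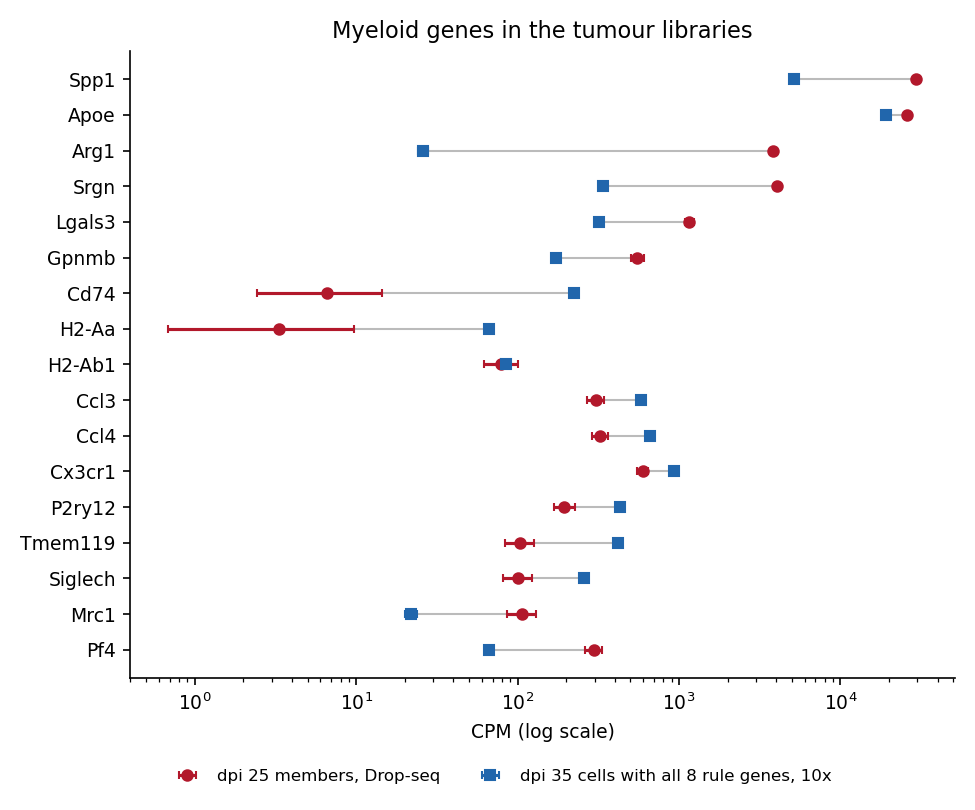
CPM (log axis) of 17 genes in the 359 dpi 25 members (red circles, Drop-seq) and in the 2641 dpi 35 cells with all 8 rule genes (blue squares, 10x), with exact Poisson 95% intervals. Arg1 lies at 3834 CPM at dpi 25 and 25.9 CPM at dpi 35, and Cd74 at 6.62 CPM at dpi 25 and 224 CPM at dpi 35.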

How the data were processed

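One Drop-seq library of a dpi 25 mouse tumour was analysed (11544233 UMIs), with the dpi 35 10x library and both cortex libraries set beside it. The authors aligned reads with STAR to mm10 and used Cell Ranger for the 10x library, per the submitters' processing notes. The deposited Drop-seq values are a signal scaled by the authors to 10000 per cell. UMI counts were recovered from them (for 100% of cells, 99% or more of the values fell within 0.1 of a whole number). The deposited 10x values are counts. Gene rows with date-like names (25) were left out, no doublet caller was run, and cells were kept as deposited.

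UMIs were summed over sets of cells and given as CPM with exact Poisson intervals, shares with Clopper-Pearson intervals and ratios with exact conditional intervals, in Python 3.11.15 with numpy 2.4.6, scipy 1.17.1 and pandas 2.3.3. A gene with at least 20 summed UMIs was called at a ratio of at least 2 either way. Where a set had 0 UMIs, a floor of 3 UMIs over the set was used. Named genes are the 12 highest and 12 lowest ratios per contrast where the higher set reached 50 UMIs and 50 CPM, and the genes of 35 lists. Members and lists were chosen with earlier results of these data known. Some genes are not reported here. The code was tested on simulated data.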

Additional observations from a re-analysis of the deposited data

How the results depend on the processing

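No paired analysis was possible because each group is 1 library and no test was made. No named gene at least 2-fold apart changed direction under the settings run for it, but the balance of higher against lower genes did. Of 570 comparisons of a named gene with an alternative, 539 stayed within the main interval and 31 moved, and of 1750 list counts 1517 stayed within 1.5 times and 233 moved. Both tallies include comparisons that could hardly move, so they overstate how stable the results were. Another minimum of summed UMIs changes which genes are tested but leaves the ratio of a named gene as it was. The list counts include the lymphoid list, which had no measured gene in any contrast at the main minimum. Counts of genes past 2-fold moved most with the minimum of summed UMIs. With a minimum of 1 UMI, 2899 genes were higher in members than in other cells, 874 were higher and 2101 lower with Arg1, and 1593 were higher and 922 lower with P2ry12. With a minimum of 100 UMIs, 862 were higher in members, 52 were higher and 31 lower with Arg1, and 1 was higher and 16 lower with P2ry12. With centred ratios 2494 genes were higher and 2384 lower in members, and 348 were higher and 330 lower with Arg1. With cells thinned to 1000 UMIs, 148 genes were higher and 167 lower with Arg1, and 99 were higher and 297 lower with P2ry12, among 2881 genes that reached the minimum. Without the 46 members with 2 or more tumour genes, 246 were higher and 227 lower with Arg1. A rule of at least 2 genes gave a share of members of 8.09%. Thinning gave 7.24% of members with both Arg1 and P2ry12, and Arg1 in 38.2% of members with P2ry12. Settings that required at least 6 rule genes, or left out members with tumour genes in the counts of both splitting genes together, or took dpi 25 members with all 8 rule genes, were added after seeing the data. A median of 2063 UMIs per cell leaves genes of low level undetected in single cells, so detection of Arg1 or P2ry12 is not the same as expression.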
